A study of Mus musculus with 28 samples.

Results

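Broad domains of H3K27me3, the trimethylated lysine 27 of histone H3, were examined in microglia sorted from mouse brain. A broad domain was a called region of at least 50 kb between its start and end in the deposited table, whatever its annotation. By this rule 524 of 26326 regions were broad, which is 1.99% of the regions and 15.1% of the called length (41.9 Mb). Their median length was 67.3 kb, 424 measured between 50 and 100 kb, and 100 were longer.

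The mark was measured by chromatin immunoprecipitation and sequencing (ChIP-seq) in microglia of adult male wild-type C57BL/6 mice. Basal microglia came from mice on regular diet and were sorted as CD44Low CD45Low CD11bLow cells. Mice in the other 3 groups ate 0.2% cuprizone, a copper chelator whose toxicity to oligodendrocytes causes loss of myelin, for 4 weeks. Their microglia were sorted by the surface proteins CD229 (Ly9) and CD11c (Itgax) into CD229-CD11c-, CD229+CD11c- and CD229+CD11c+ cells, and each of the 4 groups had 3 libraries with counts. Brains of several mice of one condition were pooled for sorting. No label says that libraries of a group came from separate pools of animals. The p-values therefore rest on the scatter among these libraries, which may be technical. The regions were called in separate basal libraries against input DNA, so a region marked only after cuprizone is not among those counted. The basal gate is labelled for basal cells alone, so diet and gate cannot be told apart in a comparison with basal. In sorted bulk cells, fewer cells with the mark and less mark per cell cannot be told apart either.

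H3K27me3 is laid down by Polycomb repressive complex 2, whose catalytic subunit is Ezh2 or Ezh1, and it accompanies silenced genes. The complex is drawn to CpG islands and spreads the mark along the chromatin, and its longest domains cover developmental regulators such as the Hox clusters, which differentiated cells of another lineage keep off. In microglia, neuronal, mesodermal and other lineage regulators are therefore typical bearers of the mark.

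Since CpG-rich promoters are a known entry site of the complex, 5 promoters that lie in contrasting broad domains are shown, each from 250 bases before to 50 bases after the start of transcription. They come from RefSeq on GRCm38.p6, the same assembly as the mm10 of the region table, and the capitals mark every CG. The first 3 lie in domains that rose in CD229+CD11c- cells. They are Slc1a7 (chr4:107968156-107968455, plus strand, 7 CG), Prdm12 (chr2:31639787-31640086, plus strand, 17 CG) and Gbx2 (chr1:89931127-89931426, minus strand, 27 CG). Foxn1 (chr11:78386559-78386858, minus strand, 8 CG) lies in a domain that fell, and Sez6l (chr5:112577149-112577448, minus strand, 35 CG) in a 253 kb domain with no call.
Slc1a7: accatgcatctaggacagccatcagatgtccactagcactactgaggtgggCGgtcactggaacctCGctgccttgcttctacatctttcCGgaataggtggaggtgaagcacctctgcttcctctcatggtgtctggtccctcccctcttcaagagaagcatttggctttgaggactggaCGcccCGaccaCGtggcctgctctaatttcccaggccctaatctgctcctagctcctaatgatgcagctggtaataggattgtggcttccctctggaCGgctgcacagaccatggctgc
Prdm12: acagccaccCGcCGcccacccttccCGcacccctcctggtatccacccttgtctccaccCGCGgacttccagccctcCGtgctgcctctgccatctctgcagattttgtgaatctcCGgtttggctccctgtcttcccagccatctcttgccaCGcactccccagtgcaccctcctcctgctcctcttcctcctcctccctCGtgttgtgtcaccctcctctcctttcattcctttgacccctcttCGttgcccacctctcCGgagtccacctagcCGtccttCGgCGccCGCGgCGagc
Gbx2: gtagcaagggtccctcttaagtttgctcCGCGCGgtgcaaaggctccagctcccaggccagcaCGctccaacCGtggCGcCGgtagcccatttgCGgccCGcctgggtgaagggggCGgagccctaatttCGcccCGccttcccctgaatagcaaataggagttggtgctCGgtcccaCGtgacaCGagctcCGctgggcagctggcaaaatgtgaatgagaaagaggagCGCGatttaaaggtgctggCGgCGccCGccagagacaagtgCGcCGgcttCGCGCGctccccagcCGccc
Foxn1: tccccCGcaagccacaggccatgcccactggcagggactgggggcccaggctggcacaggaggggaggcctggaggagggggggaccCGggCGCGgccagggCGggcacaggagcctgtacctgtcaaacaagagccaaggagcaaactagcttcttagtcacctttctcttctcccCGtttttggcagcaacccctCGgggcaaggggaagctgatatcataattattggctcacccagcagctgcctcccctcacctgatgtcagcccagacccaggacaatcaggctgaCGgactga
Sez6l: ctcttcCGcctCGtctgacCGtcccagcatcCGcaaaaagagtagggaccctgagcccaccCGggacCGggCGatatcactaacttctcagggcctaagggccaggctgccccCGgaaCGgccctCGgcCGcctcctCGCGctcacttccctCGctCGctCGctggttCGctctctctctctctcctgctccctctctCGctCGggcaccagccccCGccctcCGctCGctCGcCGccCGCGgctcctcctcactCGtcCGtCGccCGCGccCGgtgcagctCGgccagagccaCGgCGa

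Of all protein-coding promoters of this length in the table, 64.3% hold at least as many CG as that of Slc1a7, 42.7% as that of Prdm12, 20.7% as that of Gbx2, 61.5% as that of Foxn1 and 9.12% as that of Sez6l. The motif searched was CG, which reads the same on both strands. These 5 are examples and do not show how CG content and gain go together. Over all domains, the 180 with a CpG-rich promoter (at least 55% G or C and an observed to expected CG ratio of at least 0.6) had a median log2 fold change of 0.30 in CD229+CD11c- cells over basal and 115 rose (edgeR's quasi-likelihood test, adjusted p under 0.05, by which 9.52% of all regions rose). The 113 with CpG-poor promoters alone had 0.24 and 59 rose, and the 231 with no promoter in the table had 0.18 and 84 rose. Basal enrichment over input followed the same order (medians of 1.93, 1.84 and 1.72, log2), and its part in this was not tested. In all, 555 promoters of 442 genes lay in broad domains, and 40.7% of them were CpG-rich, beside 41.0% of all 21262 promoters. Promoters in broad domains had a median G or C content of 59.3%. It was 58.3% for the 4227 promoters in shorter regions and 55.7% for the 16480 promoters in no region. The CpG-rich shares were 37.0% in shorter regions and 42.0% in no region.

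A protein-coding transcription start lay in 71.0% of the broad domains and in 17.5% of the 25802 shorter regions, a difference that follows in part from the choice by length. Per length the order was the other way, with 14.3 gene starts per Mb of broad domain and 20.8 per Mb of shorter region. The domains held the starts of 594 genes in all. Domains with 1 such gene numbered 253, those with 2 or more 119, and those with none 152, of which some lie inside long genes. The centre was intergenic in 47.5% of the domains and intronic in 44.3%, against 59.1% and 32.6% of the shorter regions. Domains lay on 20 chromosomes, with 1 on the X. Median log2 enrichment over input in the calling libraries was 1.82 for broad domains and 1.49 for the rest. Another called region lay within 5 kb of 402 of the 524, so neighbouring domains can be pieces of one marked block.

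Region tags per library numbered 7740002 to 11362168. The median broad domain had 2304 to 3430 tags in a library, against 148 to 217 for a shorter region. The median standard error of a log2 fold change was accordingly 0.07 for broad domains and 0.14 over all regions, so small differences reached the threshold more often in the domains. Titles of 8 of the 12 libraries carry a PE150 tag, and the 4 without it are basal replicate 3 and replicate 3 of each cuprizone group. In each cuprizone group the untagged library had the lowest share of tags in broad domains, while in the basal group the tagged replicate 4 had the lowest and the untagged library was close to the tagged replicate 5. Results that depend on this tag are given both ways below.

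The share of region tags that fell in broad domains was higher after cuprizone, most of all in CD229+CD11c- cells. Basal libraries had 18.81%, 18.04% and 18.77% of their tags in the 524 domains (18.5% ± 0.44, SD, n = 3). The CD229-CD11c- libraries had 19.5%, 19.1% and 18.5% (19.0% ± 0.50, SD, n = 3). The CD229+CD11c- libraries had 21.1%, 20.8% and 20.4% (20.8% ± 0.36, SD, n = 3), and the CD229+CD11c+ libraries 20.2%, 19.9% and 19.8% (20.0% ± 0.20, SD, n = 3). All CD229+ libraries were above all basal and all CD229-CD11c- libraries, and the CD11c- ones were above the CD11c+ ones. The CD229-CD11c- range overlapped the basal range. These shares describe the libraries and were not tested.

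**Figure D1:**
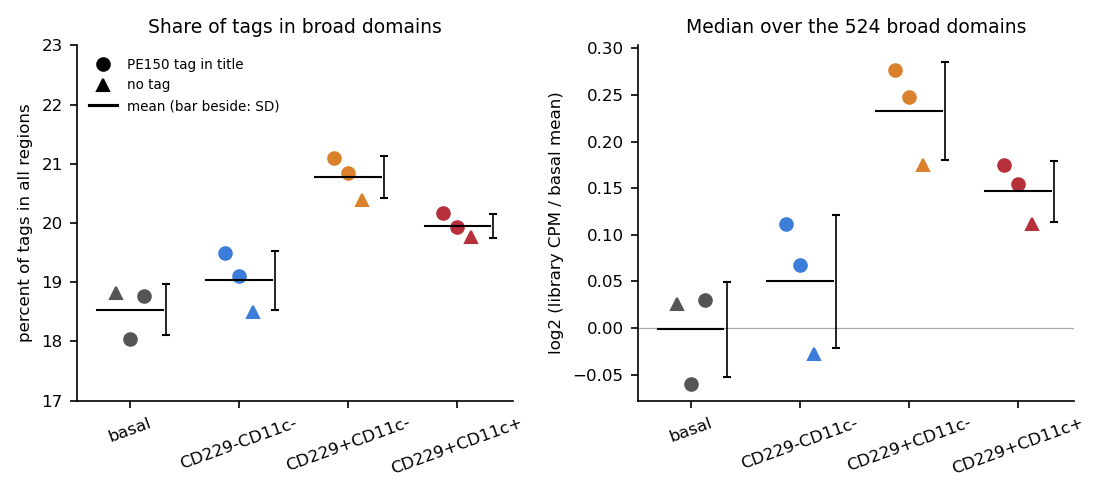
Percentage of region tags in the 524 broad domains, 1 point per library, with bars at the mean ± SD of 3 libraries per group and the PE150 title tag marked. The CD229+CD11c- libraries (20.4% to 21.1%) lie above all others and the basal (18.04% to 18.81%) and CD229-CD11c- ranges overlap.

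In CD229+CD11c- cells 49.2% of the domains gained signal over basal. By edgeR's quasi-likelihood test with Benjamini-Hochberg adjustment over all 26326 regions, 258 domains rose and 10 fell. Among all regions 9.52% rose and 3.47% fell. The median log2 fold change of the domains was 0.23, and that of all regions was -0.03. The called rises were small, with a median of 0.39 on the log2 scale (1.31-fold) and a range of 0.19 to 0.98, but in 257 of the 258 all 3 CD229+CD11c- libraries were above all 3 basal ones. Those that rose were longer (median 74.4 kb) than the 256 without a call (63.1 kb), had more basal enrichment (2.01 against 1.63, log2) and held a gene start more often (85.3% against 57.8%).

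In CD229+CD11c+ cells fewer domains passed the same test against basal. There 116 rose and 5 fell, beside 4.33% and 1.47% of all regions, and the median log2 fold change was 0.15. The rises had a median of 0.33. Both comparisons use the same 3 basal libraries. The CD229+CD11c+ count fell to 49 domains without basal replicate 4, to 49 without CD229+CD11c+ replicate 1 and to 62 without CD229+CD11c+ replicate 2. Calls over all 26326 regions fell to 442, 459 and 599 there, from 1525. With the tagged libraries alone the domain count was 298, and 10.9% of all regions rose and 5.36% fell.

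CD229-CD11c- cells, sorted from the same diet, showed no called domain against basal by edgeR or DESeq2 (0% of all regions rose and 0% fell). Unadjusted p was under 0.05 for 29 of the 524 domains, beside 1103 of all 26326 regions. The median fold change was 0.06, and 81.1% of the domains (425 of 524) had a positive one, beside 52.2% of all regions. All 3 libraries were above all 3 basal ones in 21 domains (4.01%) and below in 2 (0.382%), beside 4.19% and 4.42% of all regions. The smallest unadjusted p belonged to Enpp5 (log2 fold change 0.18, edgeR adjusted p = 0.983), followed by Prdm12/Exosc2. With the tagged libraries alone 116 domains rose and 3 fell, beside 2.99% and 0.49% of all regions at that setting. The untagged pair had a median difference of -0.04 with 148 domains positive, and the tagged libraries 0.10 with 446 positive. Against basal, the untagged CD229+CD11c- pair had 0.16 and the tagged libraries 0.27, and for CD229+CD11c+ these were 0.09 and 0.18. The direction in the CD229+ cells was thus shared by both kinds of library, and that in CD229-CD11c- cells was not.

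Domain length and basal enrichment both went with the gain in CD229+CD11c- cells. The median log2 fold change over basal was -0.08 for regions under 5 kb, -0.05 for 5 to 10 kb, 0.01 for 10 to 20 kb, 0.10 for 20 to 50 kb, 0.21 for 50 to 100 kb and 0.29 for at least 100 kb. In the longest class 58 of 100 domains rose and 4 fell, beside 9.52% and 3.47% of all regions. Basal enrichment gave a wider spread: among the 119 domains in the most enriched decile of all regions the median was 0.42 and 105 rose, while the shorter regions of that decile had a median of 0.19. In the middle decile just under the median enrichment the broad domains had 0.10 and the shorter regions -0.06. Across the 524 domains, Spearman's rho with the CD229+CD11c- fold change was 0.62 for enrichment and 0.21 for length, as a description over regions that share the same libraries.

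**Figure D2:**
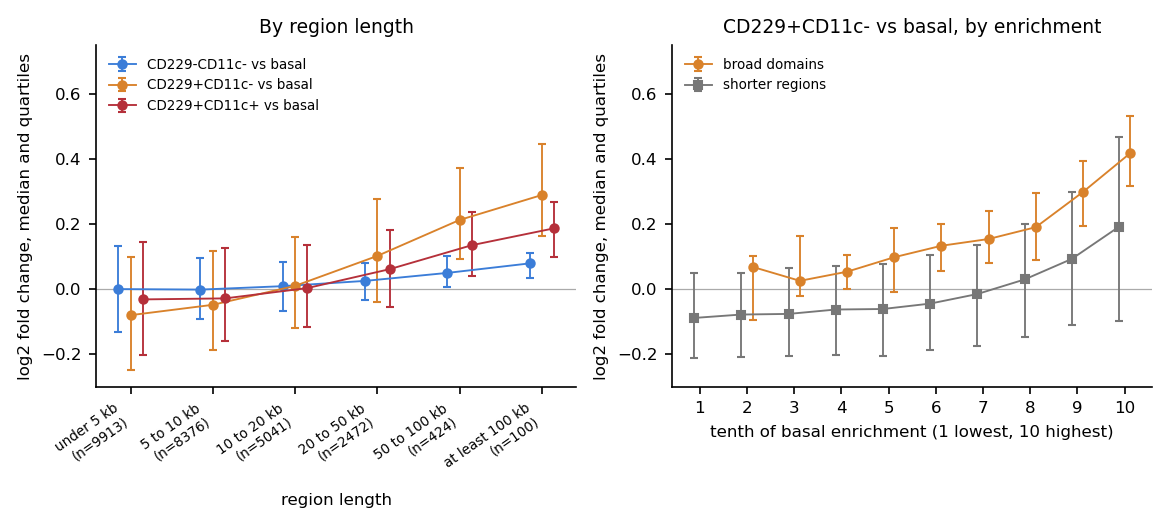
Median log2 fold change against basal by region length class and by decile of basal enrichment over input, with the quartiles. Medians in CD229+CD11c- cells climb from -0.08 under 5 kb to 0.29 at 100 kb and more, and in each decile of enrichment that holds broad domains their median lies above that of the shorter regions. Enrichment was not matched within a decile.

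This trend bears on how many domains count as changed. A fit that took out each library's trend of signal with basal enrichment and tag density (loess offsets) left 57 domains higher and 18 lower in CD229+CD11c- against basal, with a median of 0.09, and 52 higher and 9 lower in CD229+CD11c+. Among all regions the offsets left 4.78% higher and 2.52% lower in the first comparison, and 3.02% and 1.15% in the second. Under scaling by total tags, which moved the median of all regions from -0.03 to -0.16, the counts were 166 and 25 (5.99% and 14.4% of all regions), and 70 and 11 (2.61% and 3.02%). Of the 268 domains called in CD229+CD11c- against basal, 65 were also called with the offsets, and of the 121 in CD229+CD11c+ 56 were. Domains are named below with the call made without the offsets, and each group of genes is given with the number of its rises that the offsets also called. For such counts, 49.2% of all broad domains rose in CD229+CD11c- and 22.1% in CD229+CD11c+, beside 9.52% and 4.33% of all regions.

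At single domains the widest gain was at Slc1a7/Podn (chr4:107958618-108034499, 75.9 kb), where Slc1a7 encodes a glutamate transporter and Podn an extracellular matrix proteoglycan. Basal libraries had 271, 259 and 296 CPM (tags scaled to a common library total by TMM), CD229-CD11c- libraries 356.5, 335 and 276.5, CD229+CD11c- libraries 578, 533 and 519, and CD229+CD11c+ libraries 446, 422 and 432. All CD229+ libraries were far above the basal ones, the CD11c- libraries highest, and the CD229-CD11c- libraries overlapped basal. The log2 fold change was 0.98 ± 0.08 (SE) in CD229+CD11c- (edgeR adjusted p = 9.64e-08) and 0.65 in CD229+CD11c+ (adjusted p = 6.54e-05). It held under the offsets.

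Prdm12/Exosc2 (chr2:31619689-31670788, 51.1 kb) gave the same order of groups. Prdm12 is a transcriptional regulator needed for pain-sensing neurons. Basal libraries had 326, 287 and 312 CPM, CD229-CD11c- libraries 370.0, 341 and 342, CD229+CD11c- libraries 569.9, 557 and 579, and CD229+CD11c+ libraries 469, 449 and 479. No 2 of these groups overlapped. Log2 fold changes over basal were 0.19 ± 0.07 in CD229-CD11c- (edgeR adjusted p = 0.983), 0.88 ± 0.07 in CD229+CD11c- (4.57e-08) and 0.60 ± 0.07 (SE) in CD229+CD11c+ (1.72e-05).

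Mmp9/Slc12a5 (chr2:164919123-165004267, 85.1 kb) holds the start of Mmp9, a matrix-degrading protease of neutrophils and macrophages, and of the neuronal chloride transporter gene Slc12a5. Basal libraries had 628, 540.1 and 614 CPM and CD229-CD11c- libraries 730.5, 655 and 627. CD229+CD11c- libraries had 1144, 1052 and 1093, and CD229+CD11c+ libraries 907.5, 858 and 901. The CD229+ groups were each apart from basal and from one another, and CD229-CD11c- met the top of the basal range. The fold changes were 0.88 and 0.58 on the log2 scale (edgeR adjusted p = 9.64e-08 and 5.75e-05).

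**Figure D3:**
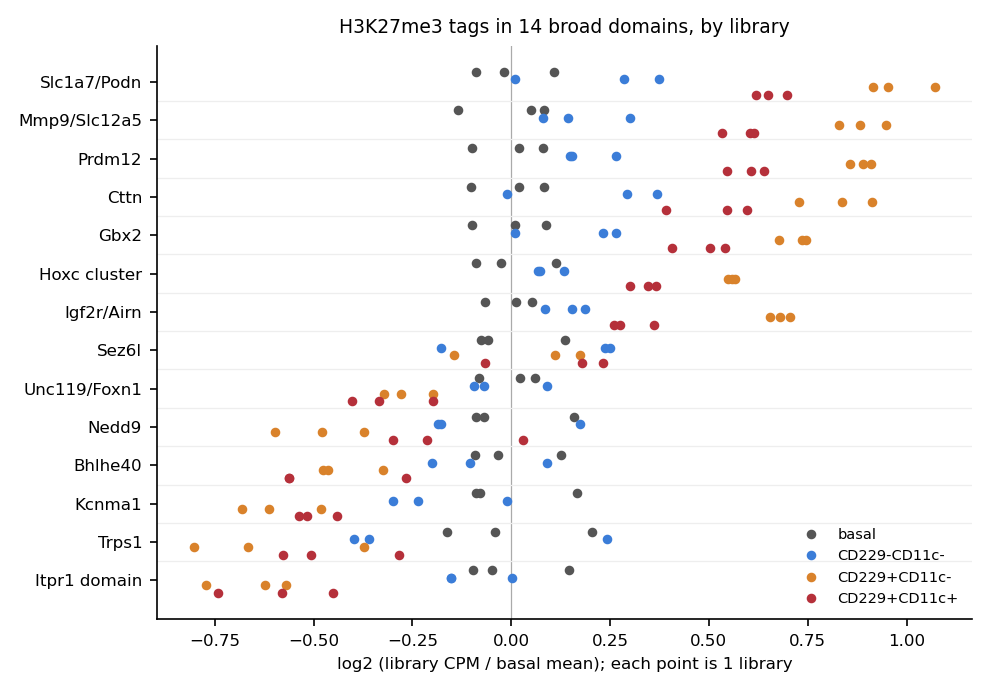
Log2 ratio of each library's CPM (tags scaled to a common library total by TMM) to the basal mean in 14 broad domains, 1 point per library, coloured by group. Slc1a7/Podn, Prdm12/Exosc2 and Mmp9/Slc12a5 are highest in the 3 CD229+CD11c- libraries, and the Bhlhe40 and Itpr1 domains are lower in CD229+ than in basal libraries.

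The other steepest gains in CD229+CD11c- lay at Cttn, for a regulator of cortical actin (0.83), at Rsph6a/Dmwd/Dmpk, which also holds the homeobox gene Six5 (0.80), at Zdhhc19, for a palmitoyltransferase (0.79), and at Enpp5 (0.78). Their fold changes in CD229+CD11c+ were 0.51, 0.41, 0.61 and 0.62, and all passed in both comparisons, that of Cttn in CD229+CD11c+ not with the offsets. Muc4/Muc20, for epithelial mucins, rose by 0.72 and 0.46. Of the genes in this paragraph only Six5 was on a list of developmental regulators. Prdm12 (above) and Gbx2 (below), whose domains were also among the 10 largest rises, were on such lists too. The 10 also include a domain of the Vegfa run described below (0.75).

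A gene of the developmental transcription factor lists was held by, or was the nearest gene to, 85 domains. The nearest gene served only where a domain held no protein-coding start. These 85 domains had a median log2 fold change of 0.45 in CD229+CD11c- cells, 69 rose and 2 fell. The other 439 had a median of 0.20, with 189 higher and 8 lower. In CD229+CD11c+ cells the medians were 0.27 (49 higher, 2 lower) and 0.13 (67 higher, 3 lower). The offsets also called 22 of the 69 rises and 17 of the 49. The basal enrichment of the 2 sets also differed, with medians of 2.07 and 1.75 (log2), and its part in the difference was not tested.

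The 4 Hox domains cover 39 Hox genes, which set position along the body axis. All 4 rose in both CD229+ groups, with medians of 0.55 and 0.34, and all 4 lost these calls under the offsets. Of the domains with other homeobox and Pax genes, 38 of 42 rose in CD229+CD11c- and 26 of 42 in CD229+CD11c+, none fell, and the medians were 0.47 and 0.29. The offsets also called 12 of the 38 rises and 8 of the 26. Gbx2 (chr1:89911053-89990243), a mid-hindbrain patterning gene, had 307, 284.5 and 324 CPM in basal libraries and 507, 511 and 487 in CD229+CD11c- libraries. The groups did not overlap, and the fold change of 0.72 (edgeR adjusted p = 1.05e-06) held under the offsets. Onecut1, a liver and pancreas regulator, rose by 0.67 and 0.49, and Pdx1/Cdx2/Urad, with the pancreatic and intestinal master regulators, by 0.67 and 0.43. Pax7, a muscle stem cell factor, was 0.68 higher in CD229+CD11c- (edgeR adjusted p = 0.00662). Its rise of 0.59 in CD229+CD11c+ (adjusted p = 0.0349) was lost when any 1 basal library was left out, and with the offsets.

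Of the domains with zinc finger and nuclear receptor regulators, 13 of 16 rose in CD229+CD11c- with a median of 0.51, and 9 in CD229+CD11c+ with a median of 0.24. The offsets also called 5 of the rises in each. Nr2f2, an orphan nuclear receptor of venous and neuronal development, had 0.61 in both comparisons, and Nr2e1, a neural stem cell receptor, 0.62 and 0.29. Gata4 of heart and endoderm rose by 0.56 and 0.37, and Tfap2a of neural crest by 0.61 and 0.35. The offsets ended both calls of Nr2e1 and that of Nr2f2 in CD229+CD11c-.

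The smaller families were mixed. For Sox and T-box genes 5 of 6 domains rose in CD229+CD11c- and 3 in CD229+CD11c+, of which the offsets also called 2 and 1. Tbx2/Tbx4 led the first comparison (0.57) and Tbx3 was even in both (0.52 and 0.53). Of the forkhead domains 5 of 8 rose in CD229+CD11c- and 4 in CD229+CD11c+, of which the offsets also called 1 and 1. Foxl2, an ovarian factor, had 0.56 in CD229+CD11c-, and Unc119/Foxn1, the 1 that fell, had -0.27. Foxn1 is the thymic epithelial factor whose promoter is printed above. Among basic helix-loop-helix domains 5 of 10 rose in CD229+CD11c- and 4 in CD229+CD11c+, of which the offsets also called 2 and 2. In this family 1 domain, Bhlhe40, fell, and the neuronal factor gene Neurod2 was the highest (0.51). The shares that rose in these comparisons were 49.2% and 22.1% for all broad domains and 9.52% and 4.33% for all regions. The offsets ended the calls of Foxl2 and Neurod2 in both comparisons, of Tbx3 in CD229+CD11c- and of Tbx2/Tbx4 in CD229+CD11c+.

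Of the domains with morphogens and growth factors, 7 of 9 rose in CD229+CD11c- (median 0.38) and 6 in CD229+CD11c+ (median 0.27), with Wnt6/Wnt10a at 0.62 and 0.32. The offsets ended all of these 7 and 6 calls. By comparison, 49.2% of all broad domains rose in CD229+CD11c- (median 0.23) and 22.1% in CD229+CD11c+, beside 9.52% and 4.33% of all regions. Axon guidance and adhesion domains rose in 8 of 14 cases in CD229+CD11c- (median 0.26) and in 4 in CD229+CD11c+, of which the offsets also called 1 and 2. Plxna1 (chr6:89334038-89470183, 136 kb), a semaphorin receptor gene, was the highest, with 732, 666 and 706 CPM in basal libraries and 1147, 1078 and 1130 in CD229+CD11c- libraries. The groups were far apart there (0.67, edgeR adjusted p = 4.53e-07), and CD229+CD11c+ libraries lay between them at 876, 849.9 and 952.

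Of the domains with neuronal channels, receptors and synaptic genes, 11 of 39 rose in CD229+CD11c- and 1 fell, with a median of 0.19 beside 0.23 for all broad domains. In CD229+CD11c+ 3 rose and 1 fell, with a median of 0.18 beside 0.15. The offsets also called 1 of the rises in each. Syt2, a synaptic vesicle calcium sensor gene, had 0.53 and 0.24 (both calls lost with the offsets). Kcnma1, a potassium channel gene, went the other way (-0.59 and -0.50).

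Markers of other brain and blood cells had few broad domains. Rises among them stand beside 49.2% of all broad domains and 9.52% of all regions in CD229+CD11c-, and 22.1% and 4.33% in CD229+CD11c+. With so few domains, no difference from these shares was tested. Of the 5 domains of the neuron list, at Rbfox3, Neurod2 and Slc32a1, 3 rose in CD229+CD11c- and 1 in CD229+CD11c+. The offsets ended all of these neuron calls. Sox10 and Cspg4, of the oligodendrocyte lineage, both had 0.37 in CD229+CD11c-, and the lymphocyte regulators Pax5 and Eomes had 0.48 and 0.51. All 4 were called, those of Sox10 and Pax5 not with the offsets. In CD229+CD11c+ 1 of the 2 oligodendrocyte lineage domains and 2 of the 2 lymphocyte domains rose, of which the offsets also called 1 and 0. No broad domain overlapped any of the 40 homeostatic microglia genes, the 6 sort panel genes, the 15 astrocyte genes or the 7 cell cycle inhibitor genes listed. Of 34 genes of disease-associated microglia, only Bhlhe40 was overlapped.

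Of the 10 domains that fell in CD229+CD11c- cells, Bhlhe40, Unc119/Foxn1 and Kcnma1 hold or overlap genes of the lists. The deepest fall was in a 109 kb domain that overlaps Itpr1 (chr6:108500921-108610375), the gene of an inositol trisphosphate receptor that releases calcium. This domain covers part of the gene, without the annotated start, and its centre is annotated as intergenic. Basal libraries had 622.5, 525 and 543 CPM and CD229-CD11c- libraries 506, 506 and 563. CD229+CD11c- libraries had 329, 365 and 379, and CD229+CD11c+ libraries 336, 376 and 411. Both CD229+ groups were far below basal and overlapped one another, while CD229-CD11c- overlapped basal. Log2 fold changes were -0.66 ± 0.08 and -0.59 ± 0.08 (SE; edgeR adjusted p = 9.79e-06 and 0.000229). Against CD229-CD11c- cells they were -0.55 and -0.49 (adjusted p = 0.000119 and 0.00527).

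Next to it, 22.2 kb away, lay the 109 kb domain at Bhlhe40 (chr6:108632597-108741110), the gene of a transcriptional repressor used by activated myeloid and T cells. Basal libraries had 599, 515 and 537 CPM, CD229-CD11c- libraries 511, 478 and 585, CD229+CD11c- libraries 395, 399 and 439, and CD229+CD11c+ libraries 372, 372 and 457. The CD229+ libraries were all below the basal ones. The fold changes were -0.42 ± 0.09 and -0.46 ± 0.09 (SE; edgeR adjusted p = 0.00213 and 0.00385).

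The loss at Bhlhe40 was uneven along the domain. The authors' table also counts a short row at the gene body itself (chr6:108660629-108666925), 5.80% of the domain's length, whose tags are counted in both rows. This row held 6.41% ± 0.23 of the domain's tags in basal libraries and 5.94% ± 0.39 in CD229-CD11c- libraries (SD, n = 3). It held 3.20% ± 0.41 in CD229+CD11c- and 2.57% ± 0.51 in CD229+CD11c+ libraries (SD, n = 3). The basal share was close to what its length gives, and every CD229+ library was under every other library. Outside the gene body the domain was also lower, by means of -0.37 and -0.40 on the log2 scale. A 16.8 kb region between the Itpr1 and Bhlhe40 domains showed -0.13 in CD229+CD11c- (edgeR adjusted p = 0.532). On the far side, 2 short regions at Itpr1 were lower in CD229+CD11c-, at -0.58 and -0.50 (edgeR adjusted p = 0.0141 and 0.0435). In CD229+CD11c+ they had -0.40 and -0.22 and no call (adjusted p = 0.131 and 0.448). A region past the Bhlhe40 domain, near Arl8b, had -0.16 in both (adjusted p = 0.554 and 0.6).

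**Figure D4:**
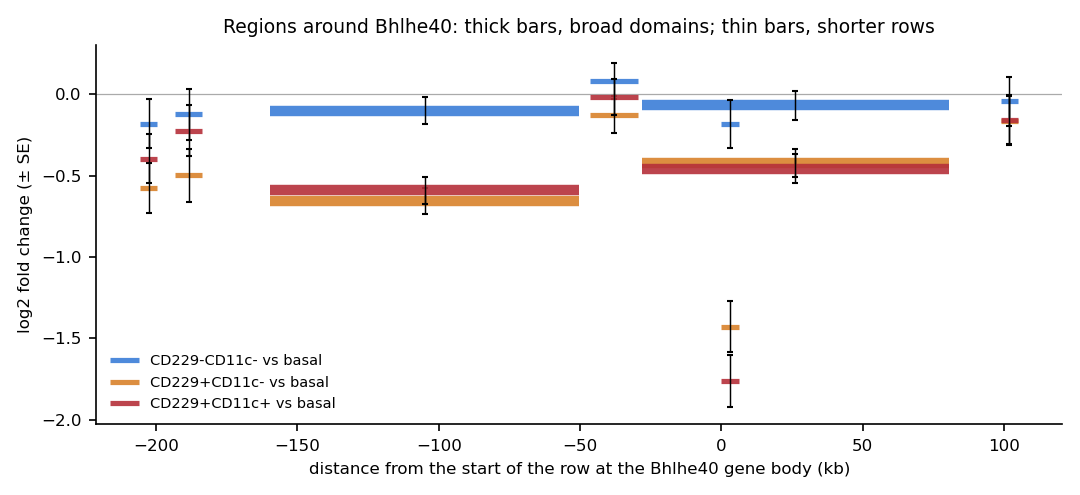
Log2 fold change against basal, with its standard error, for the called regions around Bhlhe40, placed by distance from the start of the short row at the Bhlhe40 gene body, in the 3 cuprizone groups. The Itpr1 domain (-0.66 and -0.59 in the CD229+ groups), the Bhlhe40 domain and the short gene-body row lie below 0, and the 16.8 kb region between the domains lies near it.

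Falls were also called at other domains. Kcnma1 (chr14:23654703-23706413, an intron, without the annotated start) had 239.5, 201 and 202 CPM in basal libraries, 139.5, 133 and 153 in CD229+CD11c- and 147, 149 and 157 in CD229+CD11c+. Both CD229+ groups lay below every basal library (edgeR adjusted p = 4.14e-05 and 0.00126). Trps1, a GATA-type repressor gene, had -0.61 and -0.46 (adjusted p = 0.00991 and 0.082). Armc2 and Unc119/Foxn1 fell in both CD229+ groups by 0.24 to 0.32, and Fcamr, Vrk1 and Pmfbp1 had -0.23, -0.20 and -0.19 in CD229+CD11c-. Leaving out basal replicate 3 ended the calls of Trps1, Armc2, Unc119/Foxn1, Vrk1 and Pmfbp1, and other single libraries ended those of Fcamr. All of these falls but Fcamr held under the offsets. Domains called lower in CD229+CD11c- against basal numbered 10 in the main fit and 5 without basal replicate 3 or basal replicate 5. They numbered 6 without CD229+CD11c- replicate 1 or replicate 2, 8 without basal replicate 4 and 9 without CD229+CD11c- replicate 3.

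Nedd9 (chr13:41373286-41487418, 114 kb), for a scaffold protein of focal adhesions, differed between the CD229+ groups in level. Basal libraries had 568, 478 and 484 CPM, CD229+CD11c- libraries 336, 365 and 392.5, and CD229+CD11c+ libraries 413, 438 and 519. CD229+CD11c- was below both others, and CD229+CD11c+ overlapped basal. The fold changes over basal were -0.48 (edgeR adjusted p = 0.0025) and -0.16 (adjusted p = 0.398). The direct difference of 0.33 between the CD229+ groups did not pass (adjusted p = 0.147), while with the offsets it was 0.48 and passed (adjusted p = 0.0051).

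Some of the longest domains had no call. Of the 12 longest, 8 rose in CD229+CD11c- and 6 in CD229+CD11c+, and none fell, but the offsets ended all of these calls. Among the 100 domains of at least 100 kb, 58 rose in CD229+CD11c- and 29 in CD229+CD11c+. The shares were 49.2% and 22.1% for all broad domains and 9.52% and 4.33% for all regions. Sez6l/Gm6588 (253 kb), at a neuronal membrane protein gene, had 923, 913 and 1056 CPM in basal libraries, 1143, 1133 and 849.9 in CD229-CD11c-, 1086, 1038 and 871 in CD229+CD11c-, and 1129, 1088 and 919 in CD229+CD11c+. All groups overlapped, and in each cuprizone group the untagged replicate 3 was the lowest. Runx3, a lymphoid and neuronal transcription factor gene, has 2 broad domains that each hold an annotated start of the gene. The 173 kb one (chr4:134952429-135125871) showed 0.01 in CD229+CD11c- (edgeR adjusted p = 0.957), and the 51.9 kb one (chr4:135132687-135184594) rose by 0.27 (adjusted p = 0.0118). With the offsets the longer one was lower (-0.29, edgeR adjusted p = 0.0107) and the shorter one had -0.14 (adjusted p = 0.316). The difference between these domains was not tested.

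Neighbouring domains could move together or apart. Among 62 pairs of broad domains within 25 kb of each other, 56 had the same sign of change in CD229+CD11c- against basal, 53 in CD229+CD11c+ and 50 in CD229-CD11c-, where most domains are positive to begin with. There were 8 runs of at least 3 domains with gaps of at most 25 kb, with 29 domains in all. In the run from chr17:45741230 to 46100610, which ends with a domain over Vegfa, the vascular growth factor gene, all 4 domains rose in both CD229+ groups. Their log2 fold changes were 0.49, 0.75, 0.70 and 0.53 in CD229+CD11c- and 0.43, 0.67, 0.61 and 0.36 in CD229+CD11c+, and the first 3 hold no protein-coding start. In the run on chromosome 11 that begins with the Hoxb cluster, that domain rose by 0.54, while the next 4, over Gm11529, Skap1 and Snx11, had 0.10, 0.04, 0.08 and 0.16 and no call.

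**Figure D5:**
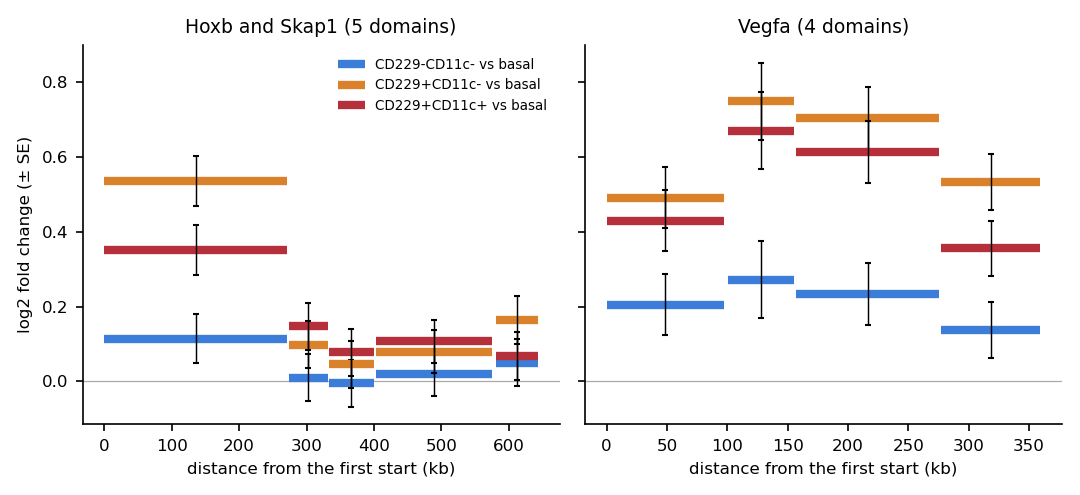
Log2 fold change against basal, with its standard error, of each domain in order along 2 runs of neighbouring broad domains, for the 3 cuprizone groups. All 4 domains of the Vegfa run are up in both CD229+ groups, and in the Hoxb run the first domain (0.54 in CD229+CD11c-) stands above the next 4.

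Within the cuprizone diet, CD229+CD11c- cells exceeded CD229-CD11c- cells in 196 broad domains and were lower in 5, beside 6.75% and 1.6% of all regions, with a median of 0.18. With the offsets 17 were higher and 12 lower (1.9% and 1.04% of all regions), and with total-count scaling 116 and 19 (4.02% and 6.45%). Slc1a7/Podn (0.75), Mmp9/Slc12a5 (0.71) and Prdm12/Exosc2 (0.70) led the rises, of which that of Mmp9/Slc12a5 was not called with the offsets. The 5 falls were at Itpr1, Nedd9, Kcnma1, Bhlhe40 and Unc119/Foxn1, which had also fallen against basal.

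CD229+CD11c+ cells differed from CD229-CD11c- cells in fewer domains, with 15 higher and 2 lower beside 0.395% and 0.152% of all regions, and a median of 0.09. Zdhhc19 (0.50), Enpp5 (0.44) and Slc1a7/Podn (0.43) led, and the 2 lower were Itpr1 (-0.49) and Bhlhe40 (-0.39, edgeR adjusted p = 0.0491). The count was 46 with DESeq2, which called 351 of all regions, against 144 in the main fit. The offsets gave 6 higher and 5 lower (0.342% and 0.224% of all regions), and total-count scaling 9 and 3 (0.228% and 0.19%). The count was 4 without CD229+CD11c+ replicate 1, 7 without CD229+CD11c+ replicate 2, 9 without CD229-CD11c- replicate 2 and 27 without CD229-CD11c- replicate 3. Over all regions these last fits called 44, 59, 68 and 271.

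Between the CD229+ groups, 21 broad domains were lower in CD11c+ than in CD11c- cells and 0 higher, beside 0.771% and 0.0532% of all regions, and the median was -0.09. Unadjusted p was under 0.05 for 165 of the 524 domains, beside 3381 of all 26326 regions. Igf2r (chr17:12705715-12784114), the imprinted receptor gene that clears insulin-like growth factor II, had the smallest p. Its basal libraries had 302, 286 and 311 CPM, its CD229-CD11c- libraries 340.3, 333 and 318, its CD229+CD11c- libraries 471, 479.7 and 487.5, and its CD229+CD11c+ libraries 362, 358 and 384. No 2 groups overlapped. The difference between the CD229+ groups was -0.38 ± 0.06 (SE; edgeR adjusted p = 0.00723).

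Rsph6a/Dmwd/Dmpk had the widest such difference (-0.39, adjusted p = 0.0136 by edgeR), followed by a domain near Atp5o over Itsn1 (chr16:91852521-91902555, -0.38). Cuedc1 and Shisal2a/Gpx7 each had -0.37. At the last 3, CD229+CD11c+ cells were close to basal (0.05, 0.17 and 0.04), and CD229+CD11c- cells above it (0.43, 0.55 and 0.42, calls that the offsets ended). The 8 of the 21 with a listed transcription factor gene were Bsx, Nr2e1, Nkx2-3, Tbx2/Tbx4, Lhx2, Irx5, Prdm12/Exosc2 (-0.29, edgeR adjusted p = 0.0361) and Rsph6a/Dmwd/Dmpk with Six5. None of the 21 was called with the offsets, which called 2 other domains, Nedd9 and Htr7, both higher in CD11c+ cells. The 21 calls also rested on single libraries: 0 domains were left without CD229+CD11c- replicate 3, CD229+CD11c+ replicate 1 or CD229+CD11c+ replicate 2. The count was 1 without CD229+CD11c- replicate 2, 3 without CD229+CD11c- replicate 1 and 8 without CD229+CD11c+ replicate 3. Over all regions the fits with a library left out called 9 to 157, against 217 in the main fit. The tagged libraries alone called 137 domains, of which all but 3 were lower, beside 0.972% of all regions higher and 4.33% lower.

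At the length threshold, the 3 shortest members were at Pou3f1 (50014 bp), Crybg1 (50026 bp) and near Atp5o (50034 bp), with log2 fold changes of 0.35, 0.16 and 0.43 in CD229+CD11c-. The 3 longest regions left out were at Adar (49966 bp), Fmod (49943 bp) and Cacna1e (49940 bp), with 0.05, 0.13 and 0.10.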

How the data were processed

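H3K27me3 ChIP-seq counts of 12 libraries (4 groups of 3) were used. Per the submitters' processing notes, reads were processed with fastp 0.20.0, Bowtie2 2.3.4.1, STAR 2.7.0f, HOMER and DESeq2, on mm10; which tool served which step is not given. The deposited counts are raw tag counts per region, and the authors' deposited table of regions gives the log2 enrichment of basal libraries over input, with its adjusted p-value. The authors' deposited comparison table gives log2 fold changes and p-values, used only in the closing section.

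The members and gene lists were chosen with earlier results of these data known. Counts were fitted with edgeR 4.0.16 (R 4.3.3; limma 3.58.1), TMM scaling over regions, 4 groups in 1 model, quasi-likelihood F-test, and Benjamini-Hochberg adjustment over 26326 regions; a call was an adjusted p under 0.05, and the filter on low counts removed 0 regions. Depth was 7740002 to 11362168 region tags per library, and counts are of reads without molecular identifiers. The fit was tested on simulated data. DESeq2 1.42.0, other scalings, loess offsets (span 0.4), the PE150 title tag and single-library omissions were alternatives.

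A domain was credited with a protein-coding gene when a RefSeq start or the whole gene lay in it. It was also credited when the nearest start in the deposited annotation lay in it. A domain with no such gene was labelled, and placed in the gene lists, by its nearest gene. Named domains were the 12 longest, those with the largest called changes (10 each way against basal, 5 within cuprizone), the Hox and Bhlhe40 domains, the 4 with the smallest p of each list, those at the length threshold and those with microglia genes; Runx3's second domain, the runs, Sox10, Cspg4, Pax5 and Eomes were chosen after their values were seen. Replicate numbers are shared by the 3 cuprizone groups. They were not taken to pair the libraries. Promoters were matched by symbol.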

Additional observations from a re-analysis of the deposited data

How the results depend on the processing

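The count of called broad domains depended on the scaling, on the PE150 title tag and on single libraries; where a count moved, the cause was not tested. With the tag as a covariate, 2 domains were called for CD229-CD11c- against basal, 277 for CD229+CD11c+ against basal, and, within cuprizone, 307 (CD229+CD11c- against CD229-CD11c-), 136 (CD229+CD11c+ against CD229-CD11c-) and 150 (CD229+CD11c+ against CD229+CD11c-). Calls over all 26326 regions moved with the setting too, and were 33, 4538, 4370, 1638 and 1920 here, in the same order. With tagged libraries only, the counts were 119 for CD229-CD11c- and 298 for CD229+CD11c+ against basal, 89 for CD229+CD11c+ against CD229-CD11c- and 137 between the CD229+ groups. Over all regions they were 916, 4274, 933 and 1397. With the offsets the domain counts were 75 and 61 for CD229+CD11c- and CD229+CD11c+ against basal, then 29, 11 and 2 within cuprizone. All regions gave 1923, 1099, 774, 149 and 43. With only the 2 groups compared in the fit, CD229+CD11c+ gave 195 against basal, 7 against CD229-CD11c- and 82 against CD229+CD11c- (2977, 50 and 631 of all regions). DESeq2 gave 46 for CD229+CD11c+ against CD229-CD11c- and 100 between the CD229+ groups (351 and 668 of all regions). Between the CD229+ groups total-count scaling gave 2 (28 of all regions). At a minimum of 100 kb, 62, 31, 53, 5 and 6 domains were called (CD229+CD11c- and CD229+CD11c+ against basal, then within cuprizone), and at 40 kb CD229+CD11c+ against basal gave 185. In the authors' deposited table, 289 domains are higher and 9 lower in CD229+CD11c- against basal, 186 and 10 in CD229+CD11c+, and 2 and 97 between the CD229+ groups. Over all regions the authors' calls are 2742 and 821, 1720 and 604, and 31 and 668.

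Leaving out each library in turn gave 0 to 2 called domains for CD229-CD11c- against basal, 199 to 282 for CD229+CD11c- and 49 to 100 for CD229+CD11c+. Within cuprizone it gave 149 to 203 (CD229+CD11c- against CD229-CD11c-), 4 to 27 (CD229+CD11c+ against CD229-CD11c-) and 0 to 8 (CD229+CD11c+ against CD229+CD11c-). Over all regions these fits called 0 to 30, 2084 to 3294 and 442 to 1605 against basal. Within cuprizone they called 1532 to 2576, 44 to 271 and 9 to 157.

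Deviations of same-numbered cuprizone libraries correlated at 0.28, 0.13 and 0.46 (CD229+CD11c- with CD229-CD11c-), 0.24, 0.13 and 0.42 (CD229+CD11c+ with CD229-CD11c-) and 0.20, 0.083 and 0.33 (the CD229+ groups). Not all exceed 0.1, and replicates 2 of CD229-CD11c- and CD229+CD11c- did not correlate best with their own number. Replicates 3 had negative correlations, from -0.14 to -0.37, with libraries of every other number. Deviations were taken from the mean of each group of 3 libraries, so within a group they cancel in every region. A positive correlation with the same number therefore brings negative ones with other numbers, which are no separate observation. Replicates 3 are also the untagged library of each cuprizone group, so number and tag cannot be told apart for them. The labels do not say what libraries of the same number share, and the main fit has no replicate term. With the replicate block, 342 domains (324 higher) were called for CD229+CD11c- and 194 (185 higher) for CD229+CD11c+ against CD229-CD11c-, and 199 between the CD229+ groups. Without the block these counts were 201, 17 and 21. Of all regions the block called 4595, 2025 and 2199, and the fit without it 2199, 144 and 217. No paired analysis was possible against basal because basal libraries share only the number 3 with the others.

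The difference in tag share of CD229+CD11c- from basal was 2.24 percentage points, 2.67 at a minimum of 40 kb and 0.98 at 100 kb. At 100 kb the others were 0.60 (CD229+CD11c+ against basal), 0.74, 0.36 and -0.39 within cuprizone. Of 1712 alternative values for 120 named results, 1509 kept direction and side of the threshold, 190 fell below it, 10 rose above it and 3 changed sign, all under the offsets: Cd40/Cdh22 at -0.090 in CD229+CD11c- against CD229-CD11c-, and Ctrb1/Bcar1 at -0.042 there and -0.00055 against basal. The offsets ended 58 calls, these 3 included. The 1712 values, and the 1509 that kept, include 120 from the fit without the filter on low counts. That filter removed 0 regions, so these 120 could not differ. Depth limits the domains less than shorter regions, as the tags per domain show.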
